A study of Sus scrofa with 6 samples.

Results

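The genes described are enzymes of peroxisomal fatty acid oxidation: ACOX3, HSD17B4, EHHADH, PHYH and CAT. They were chosen by name, and the probe sets (groups of short probes that report 1 transcript) were found through the gene symbol or, where the file had only a placeholder symbol, through its description of the enzyme. The ACOX3 probe set was instead specified directly, since its title in the file is that of a hypothetical protein. The search found 1 probe set each for HSD17B4, PHYH and CAT and none for EHHADH. With ACOX3, 4 of the 5 genes have values, out of 6463 genes named on the array. The set was put together with the ACOX3 difference between breeds already known, so the breed differences of these enzymes are given as a description, with no p-value, and no support is drawn from their calls.

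Muscle was taken from the longissimus dorsi, the long muscle of the back, of 25-day-old male piglets, and total RNA was hybridised to 1 Affymetrix Porcine Array per animal. The animals were 3 Shaziling piglets, a native Chinese breed, and 3 Yorkshire piglets, a commercial lean breed. No treatment or allele is named for either breed. Within a breed the piglets shared both parents, and the breeds were kept on different farms, so litter and farm cannot be told apart from breed, and every error given here is a spread between siblings.

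Peroxisomes are small organelles that shorten fatty acids which mitochondria handle poorly, above all very long, branched and dicarboxylic ones. An acyl-CoA oxidase such as ACOX3 starts each round and passes electrons to oxygen, which makes hydrogen peroxide, and CAT (catalase) breaks that peroxide down. HSD17B4 (the D-bifunctional protein) or EHHADH (the L-bifunctional protein) then carries out hydration and dehydrogenation, while PHYH acts upstream, in the alpha-oxidation that turns phytanic acid from the diet into pristanic acid, a substrate of branched-chain oxidases.

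Signals are log2 MAS5 values, each with a call of Present, Marginal or Absent that says whether the perfect-match probes stood above their mismatch probes. A difference is the Shaziling mean minus the Yorkshire mean on the log2 scale, with the moderated standard error (SE) and 95% interval of a limma model over 14413 probe sets that were Present on at least 3 of the 6 arrays. A probe set was called where its limma p, adjusted by Benjamini-Hochberg over all of these, was under 0.05. Of all tested probe sets 0.215% were called, 14 higher and 17 lower in Shaziling, and the median difference was -0.04. The share of probe sets called Present was 59.9%, 56.3% and 58.1% on the Shaziling arrays and 59.9%, 58.2% and 60.6% on the Yorkshire arrays. All 8 skeletal muscle fibre markers were tested and none separated the breeds, against 16.3% of all tested probe sets in either direction. Their summed signals (linear scale) were 180586 to 207244 in Shaziling and 158176 to 201363 in Yorkshire. The sum is set by the brightest markers. MB (myoglobin), singled out after its values were seen, was the 1 fibre marker with an unadjusted p under 0.05, at a difference of -0.99 (SE 0.28, limma adjusted p = 0.288). In pieces of whole muscle, fewer cells of a type and less RNA per cell cannot be told apart.

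Among the 4 measured enzymes the ACOX3 signal was higher in Shaziling, by 3.27-fold against a Yorkshire mean in which 2 of the 3 arrays were not called Present, and the other 3 had mean differences between -0.19 and 0.06 with breeds that overlapped. Of the 4, 1 was called, as higher, against 0.215% of all tested probe sets called in either direction and 0.0971% called higher in Shaziling. The breeds did not overlap for 1 of the 4, again higher, against 16.3% of all tested probe sets, 7.42% with Shaziling higher. Both counts rest on ACOX3, whose difference was known when the set was chosen, so nothing is read from them.

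**Figure D1:**
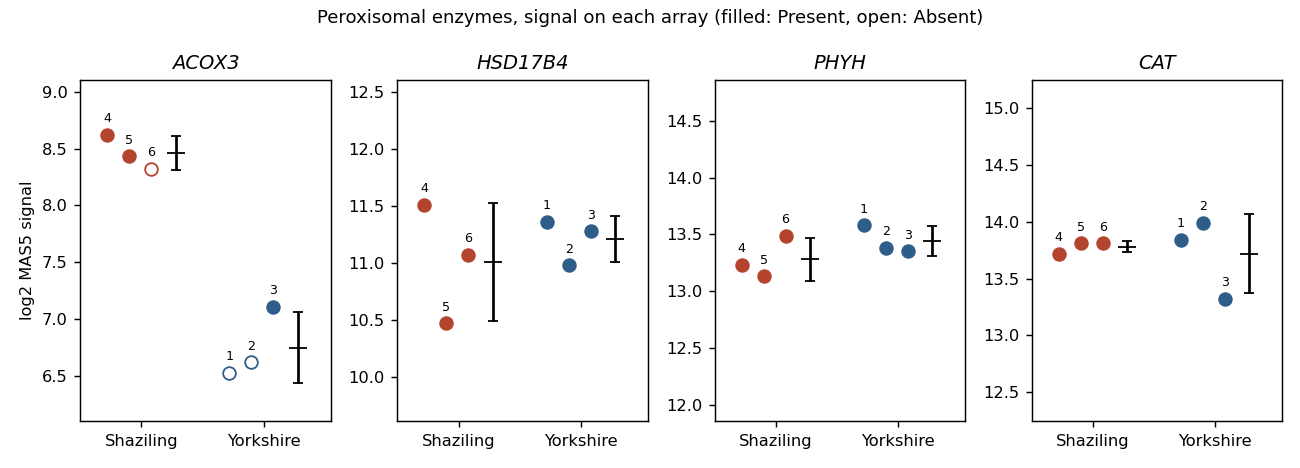
Log2 MAS5 signal of ACOX3, HSD17B4, PHYH and CAT (vertical axis; each panel spans the same number of log2 units) on the 3 Shaziling and 3 Yorkshire arrays, with the array numbers beside the points, filled points for Present and open points for Absent calls, and bars for the mean ± SD of each breed. The Shaziling points lie above all Yorkshire points for ACOX3 and overlap with them for the other 3 enzymes.

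ACOX3 oxidises the CoA esters of branched-chain fatty acids such as pristanic acid. The log2 signal of ACOX3 was 8.62, 8.43 and 8.32 on Shaziling arrays 4, 5 and 6 and 6.53, 6.62 and 7.11 on Yorkshire arrays 1, 2 and 3. On the linear scale these ACOX3 signals are 393, 346 and 320 in Shaziling and 92.2, 98.1 and 138 in Yorkshire. All 3 Shaziling arrays were above all 3 Yorkshire arrays, and the lowest Shaziling signal was 1.22 log2 units above the highest Yorkshire signal, a gap wider than the range within Shaziling (0.30) or within Yorkshire (0.58). The means were 8.46 ± 0.15 in Shaziling and 6.75 ± 0.31 in Yorkshire (SD, n = 3 each), a difference of 1.71 with an SE of 0.26. The 95% interval of that difference ran from 1.12 to 2.29, which is a fold of 2.18 to 4.9. ACOX3 was chosen with this difference known, and the interval makes no allowance for that choice. The gap and the interval therefore only describe these arrays. These are ratios of the deposited signals, and an Absent signal is not well above background, so the fold between transcript levels is not exact.

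The detection calls of ACOX3 were mixed in both breeds. Shaziling arrays 4 and 5 and Yorkshire array 3 were Present, while Shaziling array 6 and Yorkshire arrays 1 and 2 were Absent, so ACOX3 entered the model with exactly the 3 Present calls required. The Absent signal of Shaziling array 6, 8.32, lay above the Present signal of Yorkshire array 3, 7.11, so the calls did not follow the signal. Over 15 alternative settings the ACOX3 difference stayed between 1.57 and 1.89. With 1 array left out at a time it was 1.60, 1.64 and 1.89 without Yorkshire array 1, 2 or 3 and 1.63, 1.72 and 1.78 without Shaziling array 4, 5 or 6. The call counted above was lost in each of these fits except the one without Yorkshire array 3, and also with no filter on dim probe sets or a variance prior that did not follow the mean signal.

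The identity of the ACOX3 probe set rests on its gene ID, since the file gives a placeholder symbol and the title of a hypothetical protein. That gene ID carries the symbol ACOX3 in RefSeq, and the file describes the target as similar to the human pristanoyl acyl-CoA oxidase. The file places it on the minus strand of chromosome 8, from 3583803 to 3590271, at 99.3% identity, in an assembly whose version the file does not give in readable form. A neighbouring probe set, singled out after its values were seen, is described by the file as similar to the same human protein and lies 11300 bases away on chromosome 8, from 3601572 to 3614221, at 75.8% identity. That neighbour was Absent on all 6 arrays and was not tested, with log2 signals of 1.48, 1.56 and 1.89 in Shaziling and 2.06, 2.47 and 5.63 in Yorkshire. Its signals were lower in Shaziling, with no overlap, opposite to the ACOX3 probe set, but all of them were Absent. Whether the neighbour belongs to the same gene was not settled here, so the ACOX3 values come from 1 probe set.

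HSD17B4 works at the next steps and accepts both straight and branched chains. Its log2 signal was 11.51, 10.47 and 11.07 on Shaziling arrays 4, 5 and 6 and 11.36, 10.98 and 11.28 on Yorkshire arrays 1, 2 and 3, and all 6 calls were Present. On the linear scale HSD17B4 read 2915, 1415 and 2148 in Shaziling and 2631, 2019 and 2494 in Yorkshire. Both the highest and the lowest of the 6 arrays were Shaziling, so the breeds overlapped completely. HSD17B4 averaged 11.01 ± 0.52 in Shaziling and 11.21 ± 0.20 in Yorkshire (SD, n = 3 each), a difference of -0.19 (SE 0.27, 95% interval -0.79 to 0.41), and the interval of the fold ran from 0.576 to 1.33. The spread among the 3 Shaziling siblings, 1.04 log2 units, was larger than that difference.

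The signals of the 4 enzymes were set beside the share of Present calls on each array, by Pearson's r over the 6 arrays as a description without a p. That r was 0.93 for HSD17B4, 0.42 for PHYH, -0.37 for ACOX3 and -0.57 for CAT. For HSD17B4 the lowest signal was on Shaziling array 5, the array with the fewest Present calls (56.3%), and the next lowest were on Yorkshire array 2 (58.2%) and Shaziling array 6 (58.1%). The arrays with 59.9% to 60.6% Present calls had the 3 highest HSD17B4 signals. This relation was noticed in the data. With the share of Present calls as a covariate of the model, an alternative chosen after seeing the data, the HSD17B4 difference was 0.15. The HSD17B4 difference was 0.08 without Shaziling array 5 and -0.44 without Shaziling array 4, so its sign depended on single arrays. The file places HSD17B4 on the plus strand of chromosome 2, from 111755399 to 111844483, at 95.4% identity. EHHADH, the enzyme that shares these steps and takes mainly straight-chain and dicarboxylic substrates, was not analysed here.

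**Figure D2:**
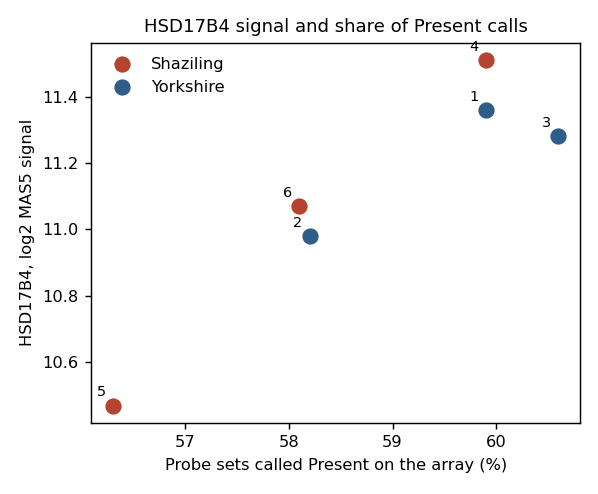
Log2 MAS5 signal of HSD17B4 (vertical axis) against the percentage of probe sets called Present on the same array (horizontal axis), 1 point per array, coloured by breed and numbered. Shaziling array 5, with 56.3% Present calls, has the lowest signal, 10.47, and the 3 arrays with 59.9% to 60.6% have signals of 11.28 to 11.51.

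PHYH hydroxylates phytanoyl-CoA, and its loss in humans causes Refsum disease, in which phytanic acid builds up. The log2 signal of PHYH was 13.23, 13.13 and 13.49 on Shaziling arrays 4, 5 and 6 and 13.58, 13.38 and 13.35 on Yorkshire arrays 1, 2 and 3, all Present. The linear PHYH signals were 9578, 8979 and 11527 in Shaziling and 12251, 10624 and 10457 in Yorkshire. Shaziling arrays 4 and 5 were below every Yorkshire array, while Shaziling array 6 lay above Yorkshire arrays 2 and 3. PHYH averaged 13.28 ± 0.19 in Shaziling and 13.44 ± 0.13 in Yorkshire (SD, n = 3 each), with a difference of -0.15 (SE 0.15, 95% interval -0.49 to 0.18) and a fold between 0.713 and 1.14. The PHYH difference kept its sign in all 16 alternative settings, from -0.26 to -0.08, all smaller than the range of 0.45 over the 6 arrays. The file gives no chromosome position for PHYH.

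CAT removes the hydrogen peroxide that the oxidases make. The log2 signal of CAT was 13.72, 13.81 and 13.81 on Shaziling arrays 4, 5 and 6 and 13.84, 13.99 and 13.32 on Yorkshire arrays 1, 2 and 3, again all Present. The linear CAT signals were 13514, 14318 and 14343 in Shaziling and 14652, 16303 and 10229 in Yorkshire. The 3 Shaziling siblings lay within 0.09 log2 units of each other, while the Yorkshire siblings spanned 0.67, with arrays 1 and 2 above every Shaziling array and array 3 below them all. CAT averaged 13.78 ± 0.05 in Shaziling and 13.72 ± 0.35 in Yorkshire (SD, n = 3 each), a difference of 0.06 (SE 0.18, 95% interval -0.34 to 0.46), with a fold between 0.791 and 1.38. The sign of the CAT difference turned to -0.14 without Yorkshire array 3, to -0.04 after cyclic loess normalization and to -0.07 with the share of Present calls as a covariate. The file places CAT on the minus strand of chromosome 2, from 24918171 to 24957715, at 99.9% identity.

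The 4 enzymes did not order the arrays alike. The highest array was Shaziling array 4 for ACOX3 and HSD17B4, Yorkshire array 1 for PHYH and Yorkshire array 2 for CAT. The lowest array was Yorkshire array 1 for ACOX3, Shaziling array 5 for HSD17B4 and PHYH, and Yorkshire array 3 for CAT. Between probe sets the signal levels themselves cannot be ranked, since probes differ in how strongly they bind.

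The genes whose signal across the 6 arrays was most like each enzyme were taken from 5957 tested probe sets of 4652 other named genes, by Pearson's r, as a description without a p; the points share the 6 arrays, and high values of r are common over so few. For ACOX3 they were RPL11, a ribosomal protein (r = 0.988), ERH (r = 0.986) and HNRNPD, an RNA-binding protein (r = 0.985). All 3 were higher in Shaziling, a direction that follows from choosing them by r with ACOX3, so nothing is read from it. Their differences were smaller than that of ACOX3, at 0.14, 0.56 and 0.21 on the log2 scale. For HSD17B4 they were S1PR3, a receptor for sphingosine 1-phosphate (r = 0.991), NUP155 of the nuclear pore (r = 0.990) and CDO1, which oxidises cysteine (r = 0.987). For PHYH they were STIM2, a calcium sensor of the endoplasmic reticulum (r = 0.977), SLC30A5, a zinc transporter (r = 0.961), and KDELC2 (r = 0.957). For CAT they were RBM25, a splicing factor (r = 0.983), EXOSC1 of the RNA exosome (r = 0.980) and SPPL2A, an intramembrane protease (r = 0.977). All 3 of the genes most like CAT were, as CAT was, lowest on Yorkshire array 3, which the choice by r also favours.

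Other enzymes of the pathway gave no call. Of 21 further genes of peroxisomal oxidation, 12 had a named probe set and 11 were tested, with 0 called by limma and 1 lower at an unadjusted p under 0.05, a level passed by 10.4% of all tested probe sets. The median difference of the 11 genes was -0.14, with 5 higher and 6 lower in Shaziling, against a median of -0.04 over all tested probe sets. It lay between -0.14 and 0.17 with 1 array left out at a time. ACOX2, the other branched-chain oxidase, had log2 signals of 8.75, 8.74 and 8.35 in Shaziling and 9.39, 8.78 and 9.12 in Yorkshire. The ACOX2 difference of -0.48 (SE 0.25, limma adjusted p = 0.543) runs against that of ACOX3, and its breeds were only 0.02 apart. SCP2, a thiolase and lipid carrier that completes the branched-chain rounds, had log2 signals of 12.91, 12.79 and 12.59 in Shaziling and 12.58, 12.38 and 12.41 in Yorkshire, with a difference of 0.31 (SE 0.15, limma adjusted p = 0.534). ACSL1, which activates long-chain fatty acids, had the smallest p of the list at a difference of -0.54 (SE 0.20, limma adjusted p = 0.38). AMACR, the racemase that prepares pristanoyl-CoA for oxidation, differed by -0.49 (SE 0.33, limma adjusted p = 0.649). ECI2, an isomerase for unsaturated chains, differed by 0.84 (SE 0.50), with 0.23 left without Shaziling array 4. A second, dimmer probe set of ECI2 differed by 0.99 (SE 0.53, limma adjusted p = 0.562). The 2 probe sets named CRAT, carnitine acetyltransferase, differed in opposite directions, by 0.31 and -0.34. The file places the first on chromosome 1 and the second on chromosome 8. Whether both report CRAT was not settled here. The probe set that lists ACAA1, the thiolase of straight chains, lists other genes too and is not named here.

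**Figure D3:**
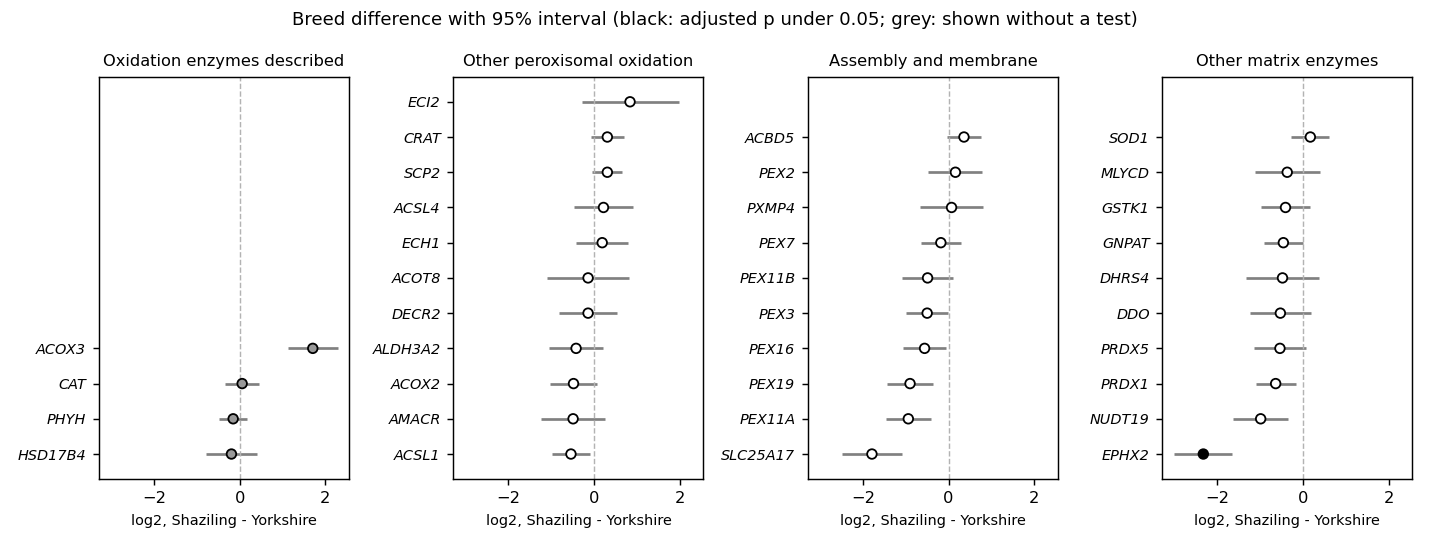
Difference in log2 signal, Shaziling minus Yorkshire (horizontal axis), with 95% limma intervals, for the 4 measured oxidation enzymes, 11 other genes of peroxisomal oxidation, 10 of peroxisome assembly and membrane and 10 other matrix enzymes, 1 probe set per gene. The black point, EPHX2 at -2.33, has a limma adjusted p under 0.05. Its difference was known when its list was written, so nothing is read from that mark. The 4 oxidation enzymes, ACOX3 at 1.71 among them, are drawn in grey, as values without a test.

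Genes that build the peroxisome membrane and import its enzymes had mostly negative differences, none of them called. Of 25 such genes 12 had a named probe set and 10 were tested, with 0 called by limma and 5 lower at an unadjusted p under 0.05, a level passed in that direction by 6.02% of all tested probe sets. Their median difference was -0.50, with 3 higher and 7 lower in Shaziling, where 46.2% of all tested probe sets were higher. The breeds did not overlap for 7 of the 10. Of these 1 was higher and 6 were lower in Shaziling, against 7.42% and 8.89% of all tested probe sets. SLC25A17, a carrier of the peroxisomal membrane, read 7.87, 7.13 and 8.39 in Shaziling and 9.67, 9.59 and 9.49 in Yorkshire, a difference of -1.79 (SE 0.32, limma adjusted p = 0.0823). PEX11A, which takes part in peroxisome division, read 7.31, 7.35 and 7.34 in Shaziling and 8.42, 8.39 and 8.01 in Yorkshire, a difference of -0.94 (SE 0.24, limma adjusted p = 0.211). PEX19, a chaperone of membrane proteins, differed by -0.90 in 1 probe set but by 0.60 and -0.01 in its other 2. PEX16 (-0.56) and PEX3 (-0.50), which also insert membrane proteins, made up the 5, and ACBD5, which ties peroxisomes to the endoplasmic reticulum, differed by 0.36 (SE 0.17, limma adjusted p = 0.517).

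Of 24 other enzymes of the peroxisomal matrix 11 had a named probe set and 10 were tested, and 1 fell, against 0.118% of all tested probe sets called lower. It was EPHX2, the soluble epoxide hydrolase, found in the cytosol and in peroxisomes. Its difference was known when the list was written, so nothing is read from this count. EPHX2 read 7.31, 7.72 and 8.38 in Shaziling and 10.46, 10.11 and 9.85 in Yorkshire, a difference of -2.33 (SE 0.31, limma adjusted p = 0.0255). That call was lost without Yorkshire array 1 (-2.17), Yorkshire array 2 (-2.35), Shaziling array 5 (-2.29) or Shaziling array 6 (-2.62), with adjusted p between 0.00417 and 0.149 over 16 alternatives. The median of the list was -0.51, with 1 higher and 9 lower, where 46.2% of all tested probe sets were higher. At an unadjusted limma p under 0.05, 3 were lower and 0 higher, against 6.02% and 4.38% of all tested probe sets. The breeds did not overlap for 4 of the 10, all lower, against 8.89% of all tested probe sets. Both counts include EPHX2. NUDT19, a hydrolase of CoA, differed by -0.99 (SE 0.29, limma adjusted p = 0.289), and PRDX1, a peroxiredoxin that like CAT removes hydrogen peroxide, by -0.64 (SE 0.21, limma adjusted p = 0.324).

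**Figure D4:**
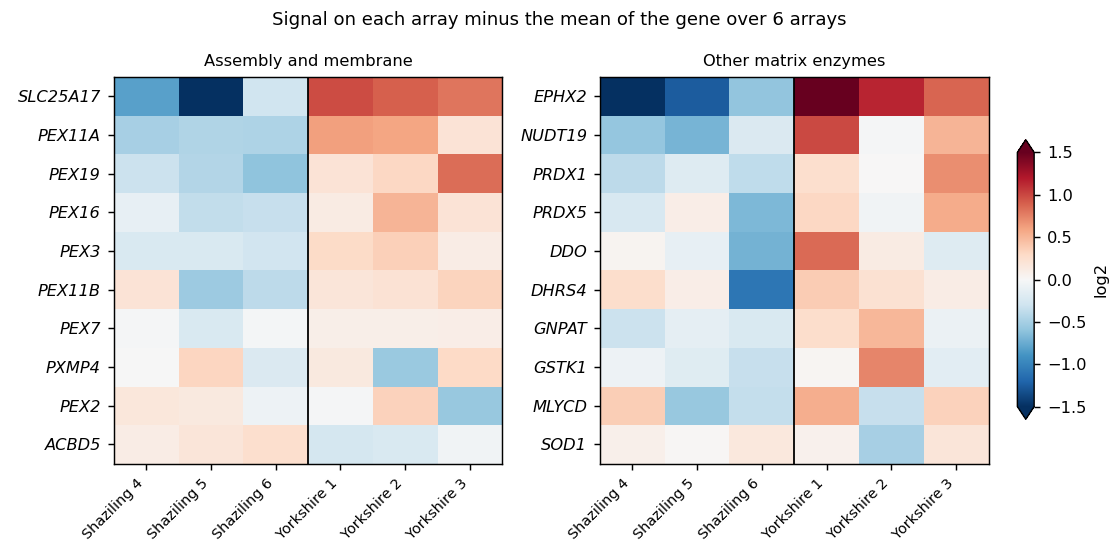
Log2 MAS5 signal on each array minus the mean of that gene over the 6 arrays (colour, limited at 1.5 in either direction), for 10 assembly and membrane genes and 10 other matrix enzymes of the peroxisome (rows), with Shaziling arrays left of the line and Yorkshire arrays right of it. The rows of SLC25A17, PEX11A and EPHX2 are blue on all Shaziling arrays and red on all Yorkshire arrays, while those of PEX2, PXMP4 and SOD1 mix both colours within a breed.

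The mitochondrial route, which oxidises most fatty acids of muscle, gave 0 calls by limma among 15 tested genes, with 3 lower at an unadjusted p under 0.05, against 6.02% of all tested probe sets. The median difference of the mitochondrial genes was -0.41, with 3 higher and 12 lower in Shaziling, where 46.2% of all tested probe sets were higher, and it was -0.21 with the share of Present calls as a covariate. ECHS1, the mitochondrial hydratase of short chains, had the smallest p of that route, with a difference of -0.95 (SE 0.26, limma adjusted p = 0.253). HADHA, the mitochondrial counterpart of the peroxisomal bifunctional proteins, differed by 0.07 (SE 0.30), beside -0.19 (SE 0.27) for HSD17B4.

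PPARA, the receptor that switches on peroxisomal oxidation genes in rodent liver, and its relative PPARD had no Present call on any array. Among 10 tested genes of the PPAR and RXR receptors, their coactivators and targets 0 were called by limma and 3 were lower at an unadjusted p under 0.05, against 6.02% of all tested probe sets. PPARGC1A, a coactivator of these receptors, averaged 9.65 ± 0.39 in Shaziling and 10.59 ± 0.18 in Yorkshire (SD, n = 3 each), a difference of -0.94 (SE 0.24, limma adjusted p = 0.23). Among 12 tested genes that remove peroxide or superoxide beside CAT, 0 were called by limma, while 1 was higher and 2 were lower at an unadjusted p under 0.05, levels passed by 4.38% and 6.02% of all tested probe sets. These were GPX1, a glutathione peroxidase (0.78, SE 0.31), GSR, which regenerates glutathione (-0.82, SE 0.22), and SOD2, the mitochondrial superoxide dismutase (-0.42, SE 0.16), with limma adjusted p of 0.409, 0.252 and 0.4.

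Markers of other cells were set beside the ACOX3 difference, each list summed over its markers with a Present call on any array. The summed linear signals of 4 adipocyte markers, all tested, were 4334 to 4937 in Shaziling and 2563 to 4503 in Yorkshire. None of the 4 separated the breeds, against 16.3% of all tested probe sets in either direction. A second probe set of FABP4, also an adipocyte marker, was not part of that sum. It differed by 2.52 (SE 0.84, limma adjusted p = 0.338), with breeds that overlapped. LIPE, singled out after its values were seen, had the lowest p among the probe sets in the sum and went against it. LIPE was Absent on all 3 Shaziling arrays, at 5.20, 4.28 and 7.08, and Present on all 3 Yorkshire arrays, at 8.47, 6.80 and 7.34, so it has only a bound in Shaziling. The macrophage list summed over 5 markers to 1449 to 1850 in Shaziling and 770 to 1585 in Yorkshire. Of the 4 tested, 1 was called, LYZ (lysozyme), higher in Shaziling by 2.05 (limma adjusted p = 0.0425). Of all tested probe sets 0.0971% were called higher. The other tested macrophage markers differed by -0.15 (CD163), 0.20 (CSF1R) and 0.49 (AIF1). The lists were chosen with earlier results known, so nothing is read from the LYZ call. The 6 endothelial markers summed to 4035 to 7320 in Shaziling and 3832 to 7967 in Yorkshire, with 2 of the 5 tested that separated the breeds, both higher in Shaziling, against 7.42% of all tested probe sets. The 2 that separated the breeds were VWF at 2.25 (SE 0.45, limma adjusted p = 0.12) and TEK at 0.42 (SE 0.21, limma adjusted p = 0.534). The other tested endothelial markers were CDH5 at -0.68 (SE 0.29, limma adjusted p = 0.468), PECAM1 at -0.17 (SE 0.36) and CLDN5 at 0.05 (SE 0.60). All of these were named after their values were seen. The 5 fibroblast markers, all tested, summed to 48054 to 61191 in Shaziling and 46008 to 65390 in Yorkshire. None of the 5 separated the breeds, against the same 16.3%. Liver is rich in peroxisomes, and 4 liver markers summed to 1444 to 2013 in Shaziling and 1266 to 2275 in Yorkshire. Of the 3 tested, 1 separated the breeds, higher in Shaziling, against 7.42% of all tested probe sets. It was TF (transferrin), at 1.45 (SE 0.31, limma adjusted p = 0.13). The other 2 tested liver markers differed by -0.12 (APOA1) and -0.32 (SERPINA1), and ALB (albumin) had no Present call. The part of other cells in the ACOX3 difference was not tested.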

How the data were processed

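The authors deposited log2 signals and detection calls for 1 array per animal. Per the submitters' processing notes they come from MAS5 (version not given in the sources used here). A second deposited table held the same signals, with 0 differing values. Of 24123 probe sets, 124 controls were left out. Of the other 23999, 9140 had 1 named gene (6463 genes), 4438 of them named through the file's Entrez ID and a RefSeq gene table of Sscrofa11.1, used for names alone. A further 12443 had no gene, 2089 only a placeholder and 327 several genes. Percent identity and positions are those of the deposited annotation, per the file headers.

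The 14413 non-control probe sets Present on at least 3 of 6 arrays were fitted with limma 3.58.1 in R 4.3.3 (lmFit, eBayes with trend=TRUE), Shaziling minus Yorkshire, without further normalization or offset, with Benjamini-Hochberg adjustment and a threshold of 0.05. The procedure was tested on simulated data. The 3 arrays per breed limit the precision.

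The members and gene lists were chosen with earlier results of these data known. Lists use the probe set of highest mean signal per gene. Named were all members, in each list any called gene and the 6 with the lowest p, the 3 genes most like each member, and PPARA, PPARD, PPARGC1A, ACOX2, ACAA1, SCP2, HADHA and EPHX2; a few other items are not reported here. Alternatives were 2 normalizations, 3 filters, log2(signal + 16), no trend, array weights, means per gene, each array left out and the share of Present calls as a covariate, the last added after seeing the data.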

Additional observations from a re-analysis of the deposited data

How the results depend on the processing

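All 63 alternative values of ACOX3, HSD17B4, PHYH and CAT moved by less than 1 SD between siblings, pooled over both breeds, though some moved by more than the SD of the tighter breed alone; ACOX3 has no value where Present calls on all 6 arrays were required, since only 3 were Present. The count of called probe sets was less stable. It was 31 as reported, 13 with no filter, 19 with Present calls on all 6 arrays, 8 without the trend and 364 with array weights, and 0 to 27 with 1 array left out (0 without Yorkshire array 1 or Shaziling array 6). Array weights gave 1 call among the other peroxisomal oxidation genes and 2 each among assembly genes, matrix enzymes and mitochondrial genes, all lower in Shaziling. Among matrix enzymes the count was 0 without the trend and 0 to 1 with 1 array left out. For 37 other named genes, 574 of 590 values kept their call and stayed near the reported value. Of the rest, 8 became calls, all under array weights, 5 lost one (all EPHX2) and 3 moved. A change of sign was counted as a reversal only where a call was involved, and 0 were. Uncalled differences did change sign. HADHA ran from -0.21 to 0.48, FABP3 from -0.91 to 0.03 and CRAT from -0.01 to 0.43. The causes were not tested. No paired analysis was possible because the breeds share no replicate numbers.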
